A study of Mus musculus with 8 samples.

Results

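The S100 family was examined in Ly-6C-high monocytes, circulating phagocytes with much of the antigen Ly-6C on their surface, taken from mouse blood and from mouse spleen by cell sorting. Its members were the 8 genes S100a8, S100a9, S100a4, S100a6, S100a10, S100a11, S100a13 and S100a1, each found by its gene name among the probes of a 1-colour Agilent array. All 8 genes had 1 probe each, among 41174 probes in all. There were 2 groups of samples, 4 of blood cells and 4 of spleen cells, all from female C57BL/6 mice, an inbred laboratory strain, which were 8 to 12 weeks old, fed chow, healthy and untreated. High CD11b and Ly-6C defined the sorted cells, which were also low for Ly-6G, CD49b, NK1.1, B220 and CD90, and for CD11c, I-Ab and an antigen of mature macrophages. Each sample held 1000 cells, and 5 ng of RNA with an integrity number of at least 8 was amplified before labelling with Cy3. Both tissues came from a group of 4 mice, but no label says that a sample number stands for a mouse, so samples were compared as unpaired groups. A p-value here therefore measures spread between samples, part of which may be technical.

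S100 proteins are small calcium-binding proteins with a pair of EF-hand loops, most of which work as dimers that change shape when calcium binds and then grip a partner protein. S100A8 and S100A9 pair as calprotectin, which is abundant in the cytosol of neutrophils and of inflammatory monocytes and which binds zinc, manganese and calcium; once released, it acts on receptors such as TLR4. The other members mostly act inside the cell, on the cytoskeleton, on annexins at membranes, or in the export of proteins that lack a signal peptide.

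All values are the authors' deposited log2 values unless another source is named. These values were on a scale whose median was 7.31 in every sample, and 6.8 was taken as the background level. A cell of the table could be empty, and in the 5 arrays whose scanner file matched their column 99.5% to 100% of the empty cells lay on spots that the scanner software had flagged for an outlying local background. For the other 3 samples, blood 1, blood 2 and blood 3, the scanner file was not that of the array in the table, with rank correlations of 0.842, 0.852 and 0.872 between file and column. Empty cells of the 5 matching arrays were therefore also filled from each array's own spot signals, a setting added after the data were seen. Between 583 and 1426 cells per column were empty, and no probe was saturated on any array. Of 8 marker genes of Ly-6C-high monocytes that could be tested, none passed the adjusted threshold between tissues, as 0.0% of all genes tested did. Of the 8, 6 had a lower and 2 a higher mean in spleen, against 48.8% of all genes higher, with a median difference of -0.15 on the log2 scale. In 1 of them all spleen values lay below all blood values. The share of all genes separated in that direction was not computed, so this count is not read as a result. The mean of that list lay between 12.31 and 12.44 in blood and between 11.77 and 12.55 in spleen.

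The members lie on chromosome 3. In the probe positions of the scanner files (build mm7), S100a1, S100a13, S100a4, S100a6, S100a8 and S100a9 fall within 1 stretch from base 90642309 to base 90822924, and S100a11 and S100a10 lie further along, from base 93627811 to base 93666290. No exon annotation of that build was used. The 60-base probes of S100a8 and S100a6 are shown because they read the same part of their proteins, the coding sequence of the carboxy-terminal calcium-binding loop, while the measured difference between tissues was large for one and small for the other.
S100a8 probe, chr3:90800058-90800117, plus strand: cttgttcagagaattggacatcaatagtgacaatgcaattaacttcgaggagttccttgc
S100a6 probe, chr3:90744440-90744499, plus strand: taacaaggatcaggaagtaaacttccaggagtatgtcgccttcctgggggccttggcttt

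Promoter windows of RefSeq (build GRCm38.p6, 250 bases before to 50 bases after the start) were matched by symbol for 7 of the 8 members, all but S100a10. Those of S100a8, S100a9 and S100a4 are shown because they were the 3 members with the letters TATAAA on either strand. Capitals mark TATAAA and, on either strand, TTNNGNAA, a C/EBP-type motif, and GAGGAA, a PU.1-type motif. C/EBP factors and PU.1 drive much of the gene programme of myeloid cells.
S100a8, chr3:90668821-90669120, plus strand: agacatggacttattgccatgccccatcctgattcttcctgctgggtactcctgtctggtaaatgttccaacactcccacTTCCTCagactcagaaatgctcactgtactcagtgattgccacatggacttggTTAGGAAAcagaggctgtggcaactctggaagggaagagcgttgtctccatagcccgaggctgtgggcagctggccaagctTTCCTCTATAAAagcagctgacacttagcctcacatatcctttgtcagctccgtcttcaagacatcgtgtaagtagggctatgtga
S100a9, chr3:90695672-90695971, minus strand: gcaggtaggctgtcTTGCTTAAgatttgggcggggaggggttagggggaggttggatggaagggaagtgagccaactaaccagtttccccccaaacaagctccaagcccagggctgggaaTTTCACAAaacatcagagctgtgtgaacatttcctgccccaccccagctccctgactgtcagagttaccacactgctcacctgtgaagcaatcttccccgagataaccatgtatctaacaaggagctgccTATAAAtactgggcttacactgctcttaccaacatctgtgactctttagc
S100a4, chr3:90603520-90603819, plus strand: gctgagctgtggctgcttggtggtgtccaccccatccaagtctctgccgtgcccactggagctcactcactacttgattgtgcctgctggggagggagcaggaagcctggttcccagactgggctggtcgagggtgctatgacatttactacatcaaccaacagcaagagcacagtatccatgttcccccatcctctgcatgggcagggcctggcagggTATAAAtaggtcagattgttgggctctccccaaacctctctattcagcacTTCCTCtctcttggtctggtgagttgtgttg

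TATAAA was held by 13.6% of the 32851 RefSeq windows of the same length. Its first base lay 30 bases before the start in S100a8 and 31 bases before it in S100a4, a place between 40 and 20 bases before the start that 1.99% of all windows shared on the gene strand. In S100a9 it began at base 1 of the start that RefSeq gives. The C/EBP-type motif was found in 2 of the 7 windows, once in S100a8 and at 2 places in S100a9, against 40.7% of all windows. The PU.1-type motif was found in 3 of the 7, at 2 places in S100a8 and once each in S100a4 and S100a11, against 28.3% of all windows, and in S100a8 the nearer copy directly precedes the TATAAA. The windows of S100a6, S100a1 and S100a13 held none of these motifs, and those of S100a1 and S100a13 share 204 bases on opposite strands. These matches are letters in a window and not measured binding.

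S100a8, the smaller subunit of calprotectin, had the largest difference between tissues among the members tested. Its log2 value was 8.47, 6.79, 10.50 and 9.54 in blood 1 to 4 and 13.99, 13.66, 15.25 and 14.70 in spleen 1 to 4. Every spleen sample lay above every blood sample, and blood 2 lay just below the background level. The blood mean was 8.82 ± 1.59 (SD, n = 4) and the spleen mean 14.40 ± 0.71 (SD, n = 4). Spleen exceeded blood by 5.57 ± 0.72 (SE) on the log2 scale, which is 47.7-fold with a 95% confidence interval of 15.7 to 145. In limma's moderated model the adjusted p was 0.0536, so S100a8 did not pass the threshold of 0.05. None of the 18266 tested genes passed it (0.0%), while 992 genes (5.43%) had an unadjusted p under 0.05, of which 564 (3.09%) were higher in spleen. The adjusted p fell to 0.0486 with empty cells filled, and ranged from 0.0182 to 0.609 over the alternatives tried. In bulk samples such as these, more cells that carry a transcript and more of that transcript per cell cannot be told apart.

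S100a9, the partner subunit, had empty cells in spleen 2 and spleen 4 and so entered the model only with those cells filled. In blood 1 to 4 its log2 value was 12.999, 8.69, 14.09 and 13.39. In spleen 1 and spleen 3 it was 16.74 and 17.18, and the filled values of spleen 2 and spleen 4 were 17.32 and 16.97. All 4 spleen samples again lay above all blood samples, the spleen samples lay close together with filling, and blood 2 stood lowest in blood, as it did for S100a8. With filling, the difference was 4.76 ± 0.99 (SE) on the log2 scale, or 27.1-fold with an interval of 5.76 to 127, and limma's adjusted p was 0.328. Leaving out blood 2 narrowed the spread, and the difference was then 3.56 with an adjusted p of 0.0105. Over the other samples left out in turn, the adjusted p reached 0.688. Of the 7 members tested with filling, 2 had all spleen values above all blood values, against 1.79% of the 18464 genes tested that way, and 1 member, S100a8, passed the adjusted threshold, against 0.0433% of those genes (8 genes, of which the 7 higher in spleen make 0.0379%).

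**Figure D1:**
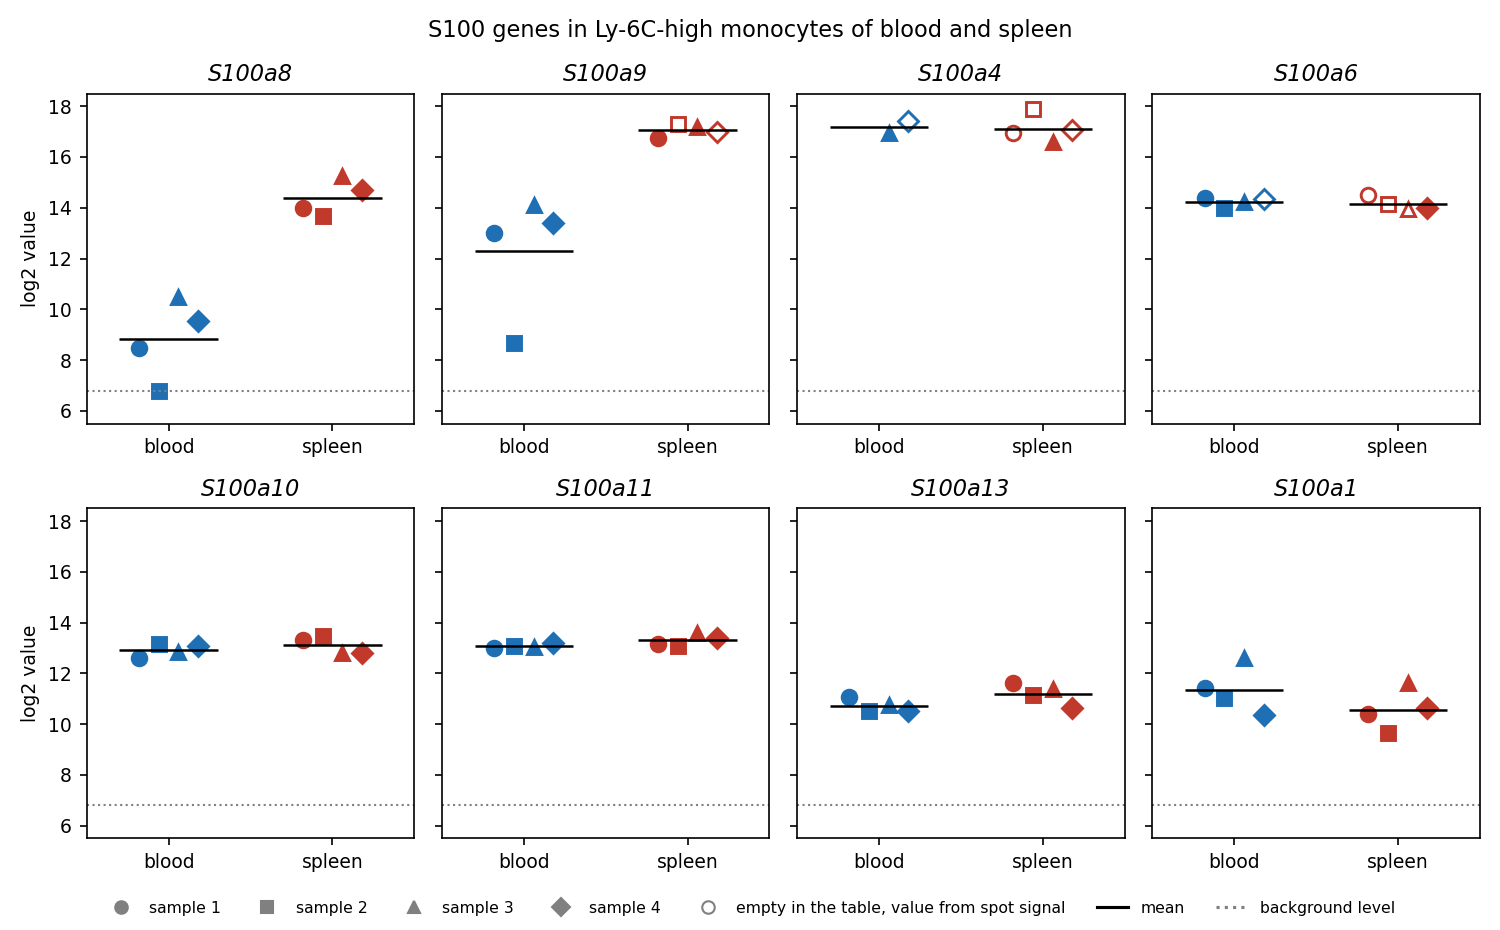
Each panel gives the log2 value of 1 S100 gene per sample, blood in blue and spleen in red, with a marker shape per sample number, a line at the mean and a dotted line at the background level of 6.8. Open points were empty in the authors' table and were filled from the array's own spot signal; S100a8 and S100a9 are the panels in which no spleen sample overlaps the blood samples, and the mean of S100a4 covers blood 3 and blood 4 alone.

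Blood 4 and spleen 4 were hybridised on 1 slide and scanned together. Between them the difference was 5.16 for S100a8 and 3.58 for S100a9 on the log2 scale, both in the direction of the group means. This pair has no test. The other slides could not be used this way, since each held a blood sample whose scanner file did not match its column, or only spleen samples.

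The samples kept an order within each tissue for S100a8. From lowest to highest it was sample 2, 1, 4 and 3 in blood and the same in spleen, over a range of 3.71 in blood and 1.59 in spleen on the log2 scale. S100a9 had that order in blood, over a range of 5.40, but in spleen its 4 values spanned 0.57 and ran from sample 1 through 4 and 3 to sample 2. The 2 genes had a Pearson correlation of 0.95 over the 8 arrays, of 0.93 over the 4 blood arrays and of 0.02 over the 4 spleen arrays. These are descriptions over few arrays, and the correlation over all 8 includes the difference between tissues. In spleen, the order, span and correlation of S100a9 rest on filled values for samples 2 and 4. Among bright cells of these arrays the held-out error of filling reached 0.49. In the scanner files scaled to the 75th percentile, S100a9 was 7.38, 7.49, 9.23 and 7.73 in spleen 1 to 4. S100a8 was 5.25, 5.01, 6.74 and 5.84 there, so both genes were highest in spleen 3.

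Differences taken within each array compare the change of one gene with that of another. S100a8 minus S100a9 was 0.82 higher in spleen than in blood on the log2 scale with cells filled, which did not exceed the spread (exact two-sided permutation test over 70 splits, p = 0.314, 0.419 after Benjamini-Hochberg adjustment over 4 such differences). It turned to -0.41 in the scanner files of all 8 samples with normexp background correction. The mean of S100a8 and S100a9 minus the mean of 5 other members (S100a1, S100a6, S100a10, S100a11 and S100a13) was 5.16 higher in spleen, with every spleen array above every blood array. The exact permutation p was 0.0286, the smallest that 4 against 4 samples can give, and 0.0571 after adjustment. S100a8 and S100a9 were each already separate between tissues, and members were chosen with earlier results of these data known. This p is therefore no separate support for their difference.

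The genes whose pattern over the 8 arrays was most like that of S100a8 were sought among 16383 genes with a value in every array. They were Ltf (lactoferrin, an iron-binding granule protein) with a Pearson correlation of 0.998, Wfdc21 (a small secreted whey acidic protein) with 0.988, Camp (the antimicrobial peptide cathelicidin) with 0.988, Sfxn1 (a mitochondrial serine carrier) with 0.964 and Pglyrp1 (a peptidoglycan-binding granule protein) with 0.960. Within the 4 spleen arrays alone the correlation with S100a8 was 0.997 for Ltf, 0.985 for Wfdc21 and 0.52 for Sfxn1. These 4 were among the 8 arrays used to pick the genes, so the values are no separate support. Over the same 4 arrays S100a11 reached 0.999 and S100a1 0.960 with S100a8, while S100a10 was at -0.953. For S100a9 with filled cells the most alike were Camp with 0.970, Sfxn1 with 0.960, Smim11 (a small membrane protein) with 0.954, and Stap1 (a signalling adaptor) and Ltf with 0.950 each. In the 4 spleen arrays Camp and Ltf followed S100a9 with only 0.34 and 0.09.

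Ltf, Camp, Wfdc21 and Pglyrp1 belong to a list of marker genes of secondary and tertiary granules of neutrophils, here called secondary granule genes. The list, which also holds the receptor gene Ltb4r1, had a higher mean in spleen in the same samples. Its mean log2 value over 9 tested genes lay between 8.31 and 9.59 in the blood samples and between 10.88 and 12.26 in the spleen samples. Of the 9 genes, 7 were higher and 2 lower in spleen, with a median difference of 1.68 against -0.01 over all genes tested, and 5 had no overlap between tissues (Ltf, Camp, Lcn2, Wfdc21 and Pglyrp1) against 1.88% of all genes in that direction. Camp differed by 5.57 ± 0.71 (SE), Ltf by 5.54 ± 0.65, Wfdc21 by 5.04 ± 0.62 and Lcn2, the siderophore-binding protein lipocalin 2, by 3.97 ± 0.45, each with a limma adjusted p of 0.0536. Mmp8, the neutrophil collagenase, had means of 11.07 ± 0.26 in blood and 10.99 ± 0.40 in spleen, so the list did not move as one.

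Other markers of granulocytes and of dividing cells also differed between these samples. The 5 primary granule genes had a median difference of 0.58, with Mpo (myeloperoxidase) at 0.87 ± 0.29 (SE) and Elane (neutrophil elastase) at 0.56 ± 0.51. The 5 surface genes of mature neutrophils had a median difference of 0.88, from 0.03 for Csf3r, the G-CSF receptor, to 2.59 for Cxcr2, a chemokine receptor. None of these 10 genes passed the adjusted threshold, as 0.0% of all genes did, and all 10 had a higher mean in spleen, against 48.8% of all genes. The 3 tested proliferation genes were higher in spleen by 1.59 (Mki67), 2.94 (Birc5) and 3.09 (Top2a). All 3 had no overlap between tissues, against 1.88% of all genes in that direction. Their mean lay between 8.26 and 8.69 in blood and between 9.91 and 11.96 in spleen. The 4 platelet genes ran the other way, with a median difference of -1.42. None of the tested genes of B cells (3), T cells (2), NK cells (1) and dendritic cells (4) passed, with median differences of 0.23, 0.73, 0.57 and 0.33. The T cell mean lay between 7.32 and 7.63 in blood and between 7.33 and 8.87 in spleen. The NK cell gene lay between 6.72 and 6.94 in blood and between 6.75 and 8.51 in spleen. Both were highest in spleen 3. Among the 4 dendritic cell genes the largest difference was 1.80, and 1 gene had all spleen values above all blood values. Ly6g, the gene of the antigen used to leave out neutrophils, was on the surface list but had no probe under that name, so it could not be tested. The part of such cells in the S100a8 and S100a9 difference was not tested. The mean of S100a8 and S100a9 minus the mean of 10 secondary granule genes, within each array with cells filled, was 2.42 higher in spleen. The exact permutation p was 0.0286, the smallest possible, and 0.0571 after adjustment over 4. Both depend on which genes the list holds, and lists were chosen with earlier results known. Single genes of the 10 differed by -0.14 to 5.57, with 8 higher and 2 lower in spleen. S100a8 differed by 5.57 and S100a9 by 4.76, within that range.

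**Figure D2:**
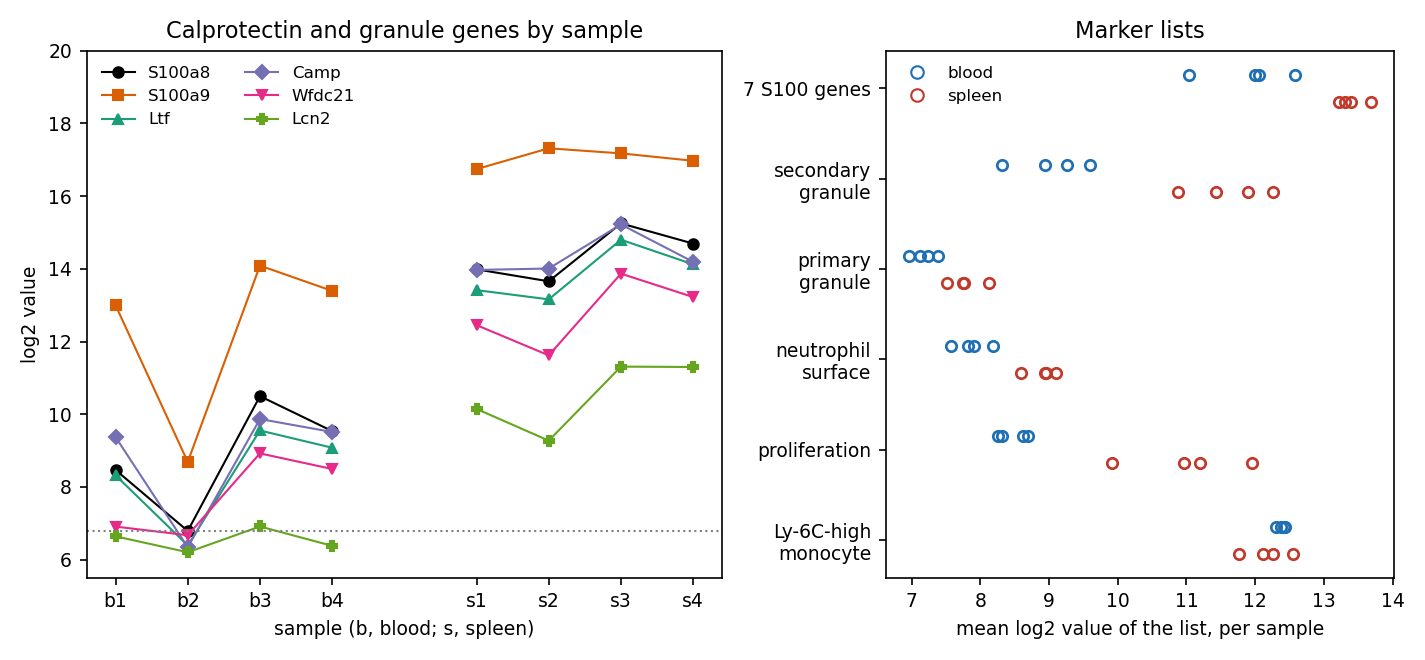
The left panel gives the log2 value per sample of S100a8, S100a9 (spleen 2 and 4 filled) and 4 granule genes; heights of different genes cannot be set against each other, since each has its own probe. The right panel gives the mean log2 value per sample of 7 S100 genes and of 5 marker lists, in which blood and spleen overlap for the monocyte list and not for the others.

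S100a4 and S100a6 regulate the cytoskeleton and cell movement. S100a4 binds non-muscle myosin, and its probe lies at chr3:90736122-90736182 (mm7). The table held a value of 16.95 in blood 3 and of 16.58 in spleen 3 and none elsewhere. Filling gave 17.44 in blood 4, 16.94 in spleen 1 and 17.06 in spleen 4, and placed spleen 2 at 17.88, the top of the scale. The signals of spleen 1 and spleen 2 were above the brightest spot with a known value, so their filled values are uncertain. Blood and spleen overlapped, and with 2 blood values S100a4 was not tested across genes.

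S100a6, also called calcyclin, was nearly level between tissues. Its log2 value in blood 1 to 3 was 14.37, 13.998 and 14.23, with 14.36 filled in blood 4. In spleen 4 it was 14.01, with 14.51, 14.16 and 13.97 filled in spleen 1 to 3. The groups overlapped fully, and the difference was -0.08 ± 0.21 (SE) with a 95% interval from -0.55 to 0.39 on the log2 scale, which lies within 2-fold in both directions, as did 55.7% of the intervals with cells filled. S100a4 minus S100a6 within each array differed between tissues by 0.05 (2 blood and 4 spleen samples, exact permutation p = 0.933, where the smallest possible is 0.133).

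S100a10, the light chain of annexin A2 and a carrier of plasminogen at the cell surface, had log2 values of 12.62, 13.16, 12.85 and 13.07 in blood 1 to 4 and of 13.33, 13.47, 12.80 and 12.82 in spleen 1 to 4. The tissues overlapped, with spleen 1 and spleen 2 the highest of the 8 and spleen 3 and spleen 4 among the lower. The difference was 0.18 ± 0.24 (SE), with an interval from -0.36 to 0.72 (limma adjusted p = 1).

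S100a11, which binds annexin A1 and other annexins at membranes, was the steadiest member in blood. It had log2 values of 13.01, 13.09, 13.04 and 13.21 in blood 1 to 4 and of 13.16, 13.07, 13.58 and 13.40 in spleen 1 to 4. The blood samples spanned 0.20 and the spleen samples 0.50, and the tissues overlapped. The difference was 0.22 ± 0.20 (SE), with an interval from -0.23 to 0.66 (limma adjusted p = 1). The intervals of S100a10 and S100a11 lay within 2-fold in both directions, as did those of 55.1% of all genes tested.

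S100a13, which takes part in the export of interleukin-1 alpha and of fibroblast growth factor 1, had log2 values of 11.06, 10.52, 10.75 and 10.50 in blood 1 to 4 and of 11.61, 11.17, 11.40 and 10.65 in spleen 1 to 4. Spleen 1 to 3 lay above all blood samples, and spleen 4 lay among them. The order of the sample numbers was the same in both tissues, with sample 4 lowest, then 2, 3 and 1. The difference was 0.50 ± 0.26 (SE), with an interval from -0.08 to 1.09 (limma adjusted p = 0.961). Its probe is split over the genome, with ends 8007 bases apart in the scanner files (chr3:90647126-90655132).

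S100a1, best known from heart and skeletal muscle, where it acts on calcium cycling, was the one tested member with a lower mean in spleen by more than 0.1. It had log2 values of 11.43, 11.02, 12.62 and 10.35 in blood 1 to 4 and of 10.38, 9.67, 11.62 and 10.65 in spleen 1 to 4. The tissues overlapped, with blood 4 below spleen 1, 3 and 4. The difference was -0.78 ± 0.53 (SE), with an interval from -1.96 to 0.41 (limma adjusted p = 1). Its direction depended on the values used. With each sample of the table left out in turn the difference stayed below 0, from -1.12 to -0.36. Between blood 4 and spleen 4 on the shared slide it was 0.29, and among the 5 matching columns it was 0.22. Both of these rest on blood 4 as the only blood sample. In the scanner files of all 8 samples, where those of blood 1 to 3 do not match their columns, it was 1.67.

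Over the 5 members tested in the table, 4 had a higher and 1 a lower mean in spleen, with a median difference of 0.22 against -0.01 over all genes, of which 48.8% were higher. None of the 5 passed the adjusted threshold, against 0.0% of all genes, and 1 had an unadjusted p under 0.05. With cells filled, 7 were tested and 5 had a higher mean, against 49.1% of all genes, and the median was again 0.22.

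For S100a6, S100a10, S100a11, S100a13 and S100a1 the genes of most similar pattern given here were none of those named for S100a8 or S100a9. They were Pura and Abhd4 for S100a6 with filled cells, Gal3st4 for S100a10, Slx4ip and Tnfsf12 for S100a11, Gtsf1l and Eif4e for S100a13, and Gc and Cyp4f16 for S100a1, with Pearson correlations between 0.952 and 0.973 over the 8 arrays. Each was picked for a high correlation among 16383 genes over only 8 arrays. How high such picks reach by chance was not tested, so no trait of these members is read from the names. The values of Gc, the vitamin D-binding protein, lay close to the background level, with a blood mean of 7.04 ± 0.08 (SD, n = 4) and a spleen mean of 6.96 ± 0.09 (SD, n = 4).

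Of 7 further S100 genes with a probe, 6 could be tested and none passed the adjusted threshold, as 0.0% of all genes did. Of these 6, 2 had a higher and 4 a lower mean in spleen, against 48.8% of all genes higher. Their differences ran from -0.41 for S100a5, through -0.33 for S100g (calbindin D9k), -0.19 for S100a3, -0.08 for S100a14 and 0.09 for S100a16, to 0.10 for S100b, the astrocyte calcium-binding protein. S100a7a was below the background level on all arrays with a value. The 5 fused-type S100 genes of the skin barrier with a probe, such as Flg (filaggrin), did not pass the filter on dim probes.

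**Figure D3:**
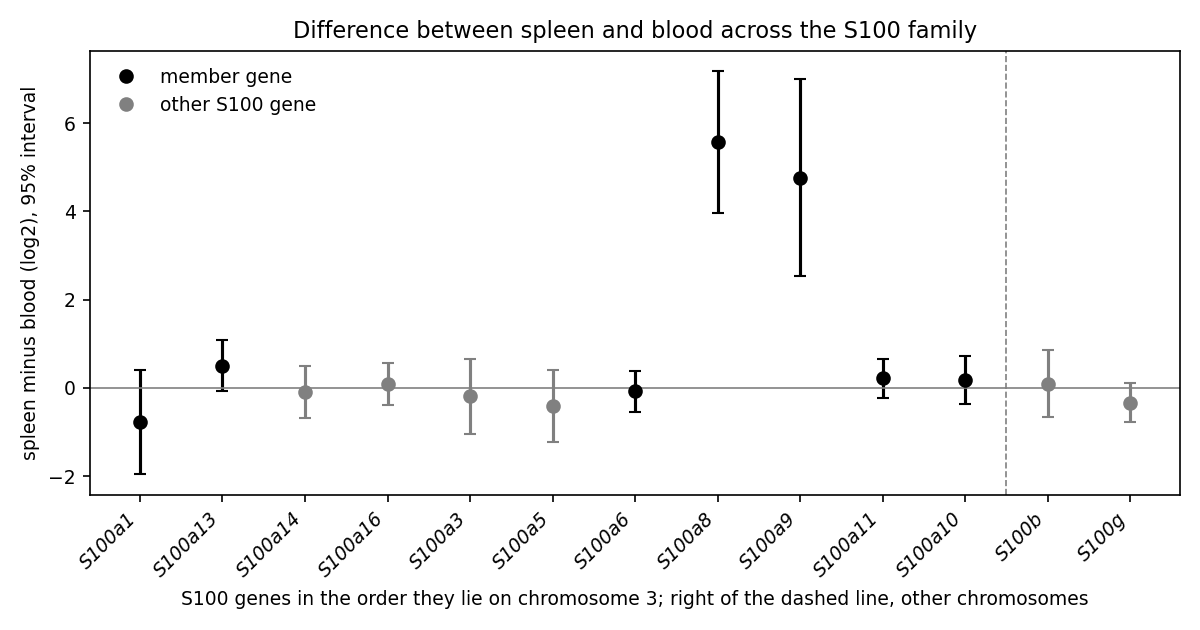
Spleen minus blood difference on the log2 scale with its 95% interval for each tested S100 gene, members in black and other S100 genes in grey, in the order of the genes on chromosome 3; S100a9 and S100a6 rest on filled cells. S100a8 and S100a9 lie side by side in the order and are at 5.57 and 4.76, while the next highest, S100a13, is at 0.50.

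Genes of the proteins that S100 proteins bind were measured beside them. Of 8 tested partners, 4 had a higher and 4 a lower mean in spleen, and none passed the adjusted threshold. Of all genes, 48.8% were higher and 0.0% passed. Anxa2, the partner of S100a10, had means of 11.75 ± 0.06 (SD) in blood and 11.72 ± 0.18 in spleen, and Ahnak, a large scaffold protein of that complex, differed by -0.38 ± 0.24 (SE). Anxa1, the partner of S100a11, differed by 0.43 ± 0.26 and Anxa11 by 0.94 ± 0.40, with limma adjusted p-values of 1 and 0.916. Il1a, whose product leaves cells with the help of S100A13, differed by 0.85 ± 0.29 with an adjusted p of 0.740. Cacybp, which binds S100a6, differed by -0.38 ± 0.26, Sugt1 by 0.27 ± 0.23 and Myh9, the myosin bound by S100a4, by -0.19 ± 0.28.

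Receptors of extracellular S100 proteins were also measured. Of 9 tested, 4 had a higher and 5 a lower mean in spleen, against 48.8% of all genes higher. None passed, as 0.0% of all genes did. For calprotectin, Tlr4 differed by 0.19 ± 0.27 (SE), its co-receptor Ly96 by -0.21 ± 0.48 and Cd14 by -0.16 ± 0.26. Ager, which encodes the receptor RAGE, differed by 0.16 ± 0.27, and Cd36, a fatty acid receptor, by -0.54 ± 0.45. Bsg differed by -0.32 ± 0.31, Nptn by 0.25 ± 0.21, Mcam by -0.79 ± 0.49 and Alcam by 0.02 ± 0.31. All 9 had overlapping tissues.

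Among transcription factors known to act on S100a8 or S100a9, 6 were tested. Of these, 3 had a higher mean in spleen, against 48.8% of all genes, and none passed, as 0.0% of all genes did. Cebpa, a C/EBP factor of early granulocyte and monocyte development, had a blood mean of 12.59 ± 0.28 (SD) and a spleen mean of 13.33 ± 0.43. It differed by 0.74 ± 0.27 (SE), with a limma adjusted p of 0.758. Cebpb differed by 0.19 ± 0.25, Cebpd by -0.35 ± 0.40, Spi1, the gene of PU.1, by 0.05 ± 0.21, Stat3 by -0.01 ± 0.19 and Hif1a by -0.26 ± 0.25.

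Other EF-hand proteins, which bind calcium with the same kind of loop, gave a reference for the family. All 22 on the list could be tested, and 14 had a higher and 8 a lower mean in spleen, against 48.8% of all genes higher. Their median difference was 0.15, and none passed, as 0.0% of all genes did. The 3 with the smallest p were Gca (grancalcin, a granulocyte calcium-binding protein) at 1.43 ± 0.47 (SE), Aif1 (a macrophage actin-binding protein) at 0.47 ± 0.22 and Cetn2 (a centriole protein) at 0.45 ± 0.25, with limma adjusted p-values of 0.729, 0.941 and 0.975. The differences over the 22 genes ran from -0.29 to 1.43, below those of S100a8 and S100a9.

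**Figure D4:**
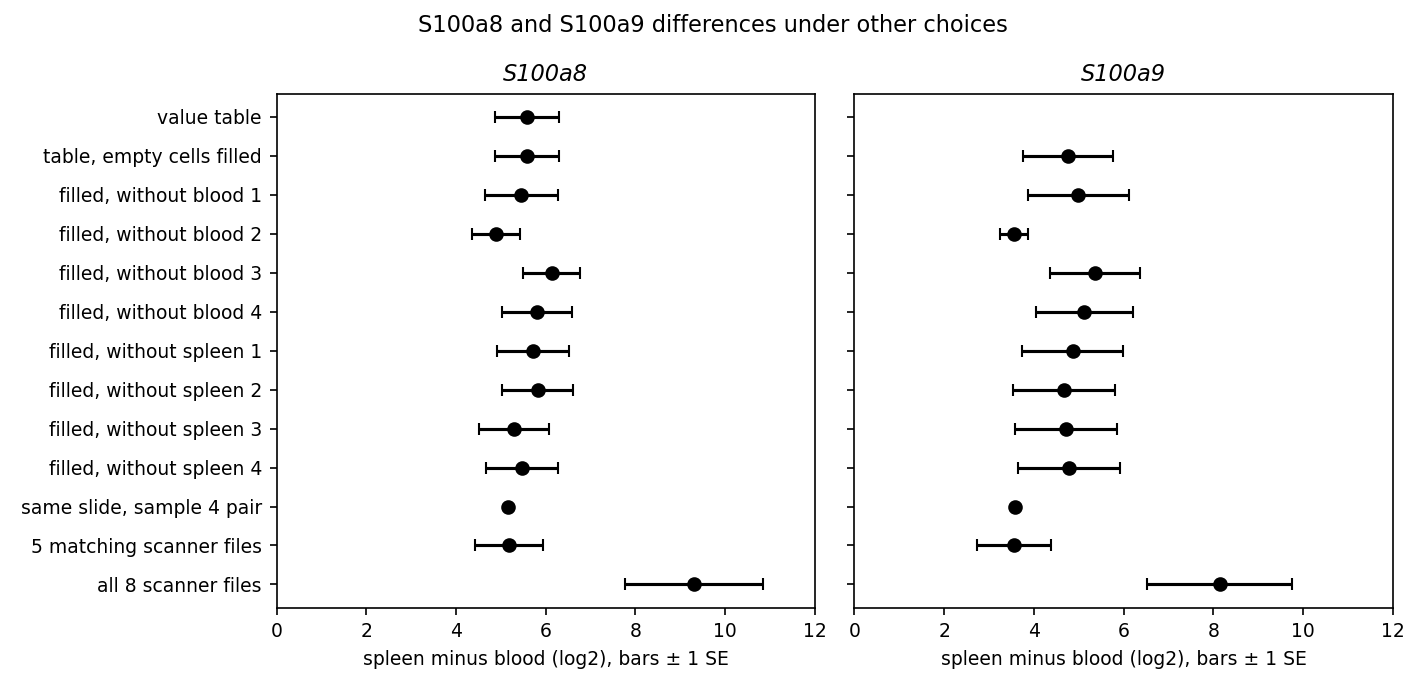
Spleen minus blood difference of S100a8 (left) and S100a9 (right) on the log2 scale, with bars of 1 SE, in the value table, with empty cells filled, with each sample left out, in the pair on 1 slide (no SE) and in the scanner files; the table alone gives no fit for S100a9. Every value shown lies above 0, from 3.56 for S100a9 without blood 2 to 9.31 for S100a8 in all 8 scanner files.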

How the data were processed

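The authors deposited 2 kinds of values for 8 arrays. Scanner files hold spot intensity values and spot flags, written by Agilent Feature Extraction 9.5.1.1 per the file headers. The deposited table holds log2 values, made with limma per the submitters' processing notes; its steps are not given in the sources used here, but all columns share a median, and in 5 arrays they rank probes as the median spot signal without background subtraction does, which narrows differences of dim probes.

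Probes were named by accession through a RefSeq table (22951 of 41174 probes) or kept the file's name. Probes with a value of at least 6.8 on 4 of 8 arrays and 3 values per tissue were kept (25471), and the brightest probe stood for a gene. Spleen was compared with blood for 18266 genes by lmFit and eBayes (limma 3.58.1, R 4.3.3) with Benjamini-Hochberg adjustment at 0.05. Filled cells were interpolated from the array's own signals. Above a log2 value of 12 the 99th percentile of the held-out error was at most 0.0579, but the largest error per array was 0.489 to 0.941. Within-array differences were tested in scipy 1.17.1. Alternatives covered the values' source, filters, probe rule, variance model, pairing and each sample left out. The fit was tested on simulated data. Members, lists and the genes named (all members and list genes, the 3 other EF-hand genes with the smallest p, and the genes most like a member by Pearson correlation) were chosen with earlier results of these data known. A gene that this rule names is not reported here. The number of arrays limits the precision.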

Additional observations from a re-analysis of the deposited data

How the results depend on the processing

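The medians of the members' differences stayed above 0 in the 23 alternatives tried (0.17 to 0.73). The number of members passing was 1, S100a8, in 6 alternatives (the mean over probes, the random replicate block, array weights, the intensity trend, and filled cells without and with that block), and 0 in the other 16 for which this number was computed, including each that left out a sample of the unfilled table. Leaving out samples gave 0.19 to 0.48 for the median, and 0 to 3 for all genes passing. The count over all genes was 0 as reported, 1 with probes above background on all 8 arrays, 7 with the mean over probes, 8 with the intensity trend, 9 with array weights, 8 with filled cells and 4 with either normalization of the scanner files. Leaving out samples gave 0.78 to 1.65 for S100a8 minus S100a9 in the table, 4.10 to 5.49 for both minus the other members and 1.71 to 2.80 for both minus the granule genes.

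The same sample numbers correlated at 0.0903 to 0.141 in their deviations, and every other pair of blood and spleen at 0.0344 or less. Every sample thus correlated best with its own number. The reported fit was kept unpaired because no label says that a sample number stands for a mouse. These correlations do not settle whether equal numbers share a mouse, which was not tested. With the replicate block the count over all genes was 1 (fixed), 13 (random) and 19 (random with filled cells). In these fits limma's adjusted p of S100a8 was 0.0714, 0.0194 and 0.0237. Without the block it was 0.0536 in the unfilled table, so there the choice of block decided whether S100a8 passed.

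S100a1 turned sign in 5 alternatives, to 1.67 and 1.39 in the scanner files by percentile and by normexp, to 0.22 and 0.24 in the 5 matching columns and scanner files, and to 0.29 on the shared slide. S100a6 turned to 0.42 and 0.34 in the scanner files of all samples, S100a10 to -0.26 on the shared slide, and S100a8 minus S100a9 to -0.41 in the scanner files by normexp. The cause was not tested. S100a8 stayed between 4.86 and 9.31 and S100a9 between 3.56 and 8.14. With blood 2 left out and cells filled, both genes passed, with adjusted p-values of 0.0389 for S100a8 and 0.0105 for S100a9; with any other sample left out, neither did, up to 0.215 and 0.688. Within-array differences had no value among the 5 matching arrays, with 1 blood sample.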

Other observations

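The 3 scanner files that did not match their table columns (blood 1 to 3) held their own signals for the members. The median spot signal of S100a8, before any normalization, was 68, 216 and 65 in these files, 826.5 in blood 4 and 12531 to 37992.5 in the 4 spleen files. That of S100a9 was 241, 925 and 99 in these files, 12370.5 in blood 4 and 94305.1 to 232781 in the spleen files. By contrast, S100a11 lay at 4939 to 10855.5 in the 4 blood files and at 8554 to 14003 in the spleen files.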
